A study of Mus musculus with 2 samples.

Results

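The potassium channel family was taken as every gene probe whose gene name begins with Kcn, followed by letters and a closing number, with Kcnj8 left out. The pattern held 91 genes and 139 probes of the 39429 gene probes on the array, and 64 of the 91 genes, against 21143 genes in all, gave a signal that could be compared. The genes encode the pore-forming subunits of potassium channels and several of their auxiliary subunits. RNA came from ureters of NMRI mice at postnatal day 4. The mutant, called Rbpj-cKO, carried Tbx18(cre/+) with Rbpj(fx/fx), and the control carried Tbx18(+/+) with Rbpj(fx/n.d.), so that it held no Cre allele and its second Rbpj allele is given as n.d.. Cre was driven from the Tbx18 locus, which is active in the mesenchyme around the developing ureter, so that cells outside that lineage kept their Rbpj alleles and 1 copy of Tbx18 in the mutant held Cre. Each of 2 two-colour arrays compared 1 mutant RNA with 1 control RNA: on array 1, labelled female, the mutant was in red (Alexa647), and on array 2, labelled male, the dyes were exchanged and the mutant was in green (Alexa555). The labelled sex, dye orientation and array therefore change together, and the labels do not say whether an RNA came from 1 animal or from a pool.

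Potassium channels let potassium leave the cell and so hold the membrane potential of muscle, nerve and epithelium near its resting value. In ureteral smooth muscle, which drives urine by waves of contraction, calcium-activated and voltage-gated members end the action potential, inward rectifiers and two-pore domain members set the resting potential, and silent or auxiliary subunits change how other members open. Other members serve in neighbouring cells, such as salt transport in kidney tubules or conduction in nerve. RBPJ binds DNA and carries the signal of activated Notch receptors to genes.

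Rbpj itself was lower in the mutant on both arrays, with log2 ratios of -0.92 and -1.10 and a mean of -1.01 ± 0.13 (SD, n = 2 arrays; limma adjusted p = 0.0873). The labelled sex did not hold for both RNAs of array 1: the Y-linked genes Ddx3y and Eif2s3y had log2 ratios of 4.23 and 4.26 there, against -0.54 and -0.19 on array 2. On array 1 the RNAs thus differed in Y-linked transcripts along with genotype, and there the part of sex in a ratio cannot be told apart from that of genotype. Many results are therefore given for each array on its own as well. Comparisons between probes and the values of some members are given only as means over both arrays. Smooth muscle and urothelium markers, which define a ureter, were measured for 8 of 8 genes in either list. Gene lists of other tissues differed between the RNAs too. All 10 of 10 adipocyte markers were lower in the mutant on both arrays (medians of -3.10 and -1.75), 7 of 8 measured kidney epithelium markers were higher on both (medians of 1.00 and 0.28), and the 7 hepatocyte markers changed sign between the arrays (medians of 0.79 and -2.70), the control RNA of array 2 standing at a mean log2 level of 12.34 against 9.25 to 9.93 in the other RNAs. Mesothelium markers were higher on both arrays for 4 of 5 genes (medians of 0.99 and 0.14), and 0 of 6 leukocyte markers had the same sign on both. In RNA from whole tissue, fewer cells of a type and less RNA per cell cannot be told apart.

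No potassium channel gene passed the limma test, whose smallest adjusted p for a member was 0.132. With the processing used here the differences were small and went both ways. Of the 64 measured members, 21 (32.8%) were lower in the mutant on both arrays, where 29.8% of all genes were, and 21 (32.8%) were higher on both, where 31.7% of all genes were. The other 22 members had ratios of opposite sign on the 2 arrays. With the values of the deposited series table, 27.7% of members and 22.99% of all genes were lower on both arrays, and 30.8% and 38.7% were higher. Of all values in that table, those of probes left out here included, 31.8% for array 1 and 31.6% for array 2 are exactly 1. Such a value counts as neither lower nor higher, and its share among the genes compared was not counted. The members' median was 0.01 for array 1, -0.03 for array 2 and -0.04 for the mean of both, as log2 ratios, beside -0.01, 0.01 and 0.00 for all genes. By the ratios computed here, and not those of the series table, the shares of members lower or higher lay near those of all genes. Single members ranged from -0.68 (Kcnj12) to 0.60 (Kcnh5). These sizes depend on the processing: with the scanner's own log ratio Kcnj12 had -0.76 and Kcnh5 1.03. Kcnj12 was the 1 member at least 1.5-fold lower on both arrays, a size reached by 168 genes (0.795%), and 0 members were at least 1.5-fold higher on both, a size reached by 85 genes (0.402%). The limma test with Benjamini-Hochberg adjustment called 1 gene of 21143 (0.00473%), which is not a member. With only 2 ratios per gene the fit had 1 residual degree of freedom, which limits what it can call. At an unadjusted limma p under 0.05 there were 15 members (23.4%) and 2960 genes (14%). Of these 15 members 9 were lower and 6 higher, among the latter Kcnj13, whose probe was kept through the mutant RNAs alone. With both genotypes required above background, 62 members stayed, of which 14 had an unadjusted limma p under 0.05 (22.58%, beside 13.81% of all genes). For 30 members (46.9%) both control RNAs lay on the same side of both mutant RNAs, as for 43.1% of all genes.

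**Figure D1:**
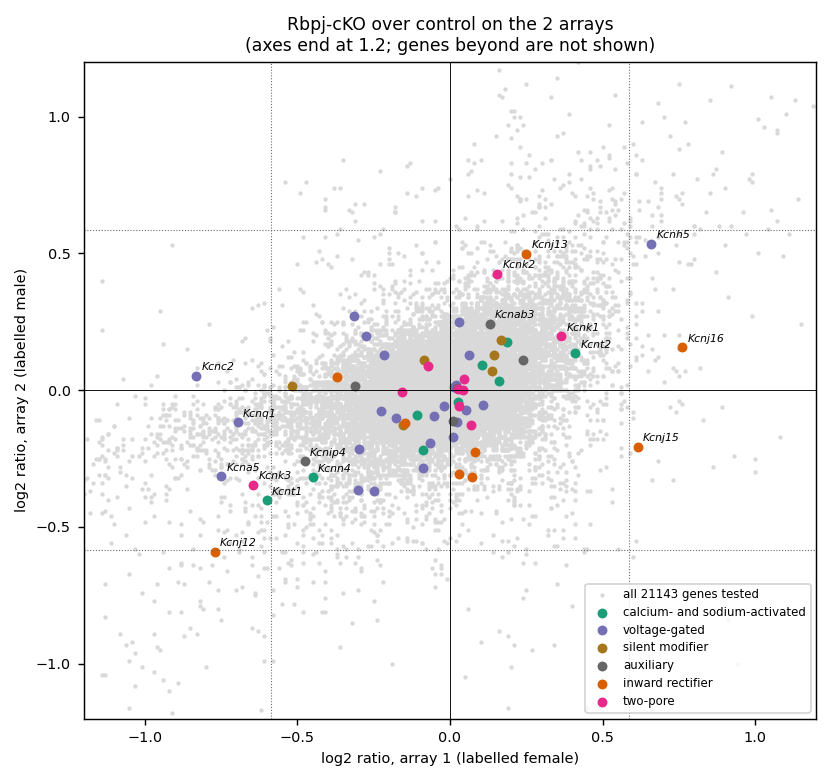
Log2 ratio of Rbpj-cKO over control on array 1 (horizontal) and array 2 (vertical) for all 21143 genes tested (grey) and the 64 potassium channel genes measured, coloured by class. Dotted lines mark 1.5-fold; Kcnj12 alone among the members lies beyond them on both arrays, and most members sit inside the grey cloud around 0.

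By class, the voltage-gated subunits had 11 of 24 measured genes lower on both arrays and 5 higher, with a median mean ratio of -0.06. The inward rectifiers had 2 of 9 lower, 2 higher and 5 of opposite sign, with a median of -0.12 and values from -0.68 to 0.46. The two-pore domain channels had 2 of 10 lower and 4 higher (median 0.01). The calcium- and sodium-activated channels had 4 of 9 lower and 4 higher (median -0.01), the silent modifiers 1 of 6 lower and 3 higher (median 0.06), and the auxiliary subunits 1 of 6 lower and 3 higher (median -0.02). On arrays 1 and 2 the class medians were -0.08 and -0.07 for voltage-gated subunits and 0.07 and -0.21 for inward rectifiers. They were 0.035 and 0.002 for two-pore domain channels and 0.03 and -0.04 for calcium- and sodium-activated channels. Silent modifiers had 0.03 and 0.09, and auxiliary subunits 0.02 and 0.01. The medians of inward rectifiers and of calcium- and sodium-activated channels thus changed sign between the arrays. None of the 6 classes held a gene that passed the limma test.

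**Figure D2:**
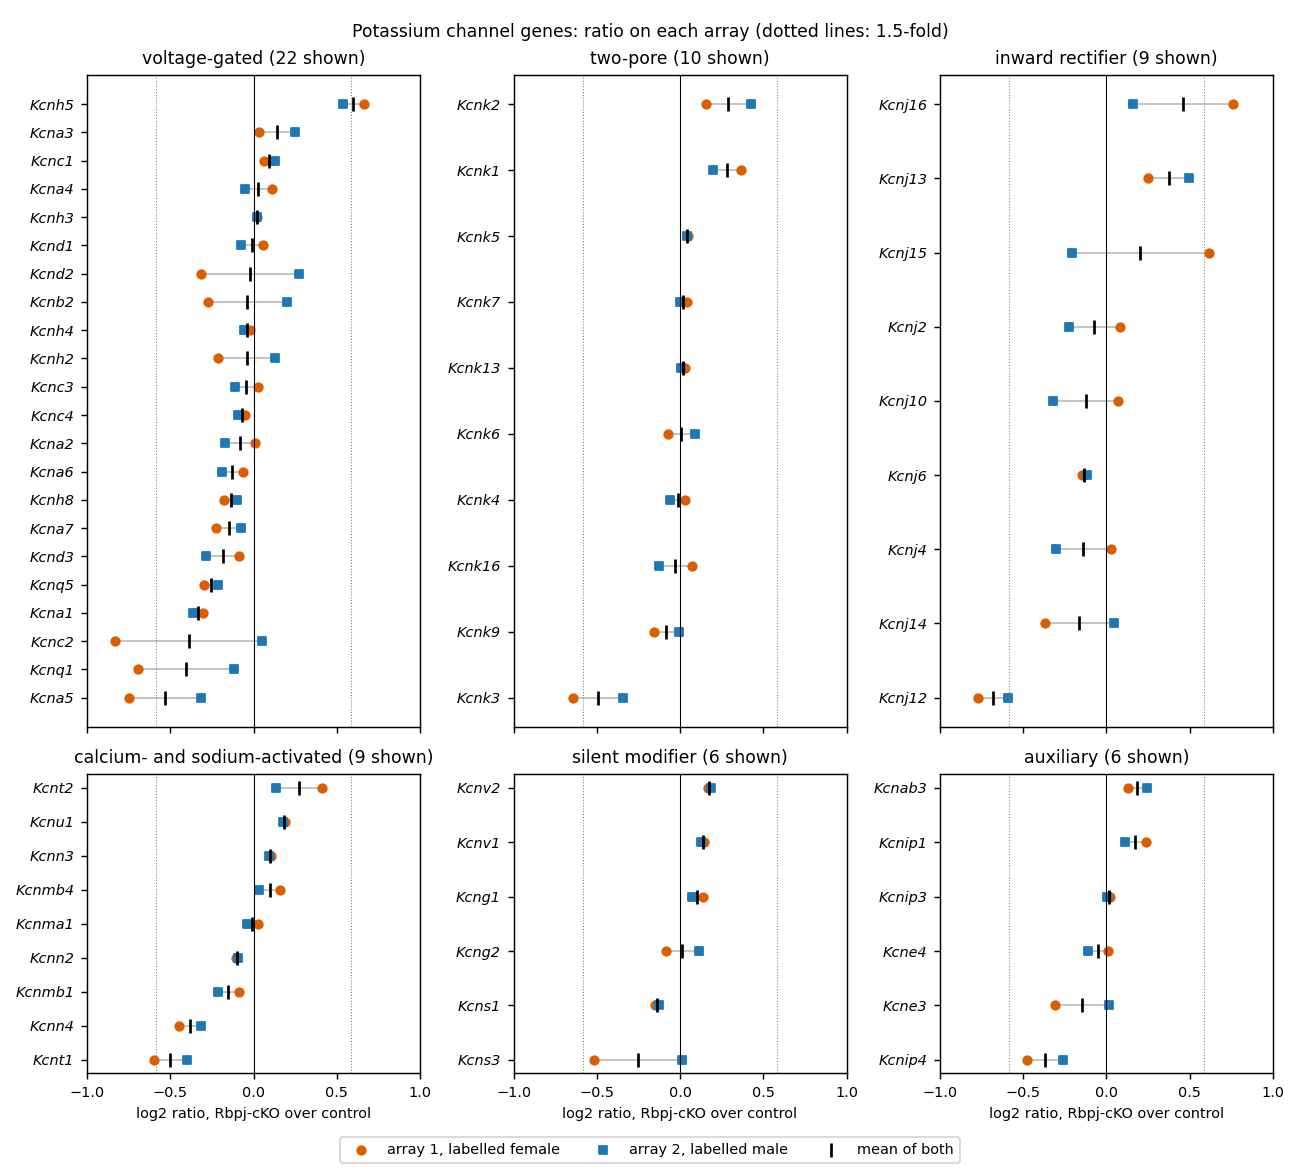
Log2 ratio of Rbpj-cKO over control for 62 measured genes, by class: circles are array 1, squares array 2, bars the mean of both, dotted lines 1.5-fold. The gap between the 2 arrays is widest for Kcnc2 and Kcnj15, and it is also wide for Kcnj16, Kcnd2, Kcnq1 and Kcns3.

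The probes behind the 4 lowest and the 2 highest means are shown because the ratios below rest on them. Each probe has 60 bases, of which the first 30 are given in lower case, 5′ to 3′, as in the scanner files, with coordinates on mm9. Each was printed as 4 spots per array. Whether a probe lies in a coding or an untranslated exon was not analysed here.
Kcnj12 (chr11:60884556-60884615, + strand): tcaggctgcttgtgaccatgttaacgattc
Kcna5 (chr6:126482573-126482632, - strand): ggcttttgagaattcattcttttcattttg
Kcnt1 (chr2:25773734-25773793, + strand): aggatttgtgtgctcagataccagtcacca
Kcnk3 (chr5:30927090-30927149, + strand): ctgggaaatccttaggtggaaggaatctgg
Kcnj16 (chr11:110889223-110889282, + strand): ttataacatgctttgacacgcctgatggct
Kcnh5 (chr12:75998266-75998325, - strand): gccaaagacaattattcaaaacatagatat

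Levels below are normalised log2 signals in each RNA, and they are compared only within a gene, since probes differ in how brightly they bind. Values are given in the order control and mutant of array 1, then control and mutant of array 2.

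Among the calcium- and sodium-activated channels, the BK channel of smooth muscle differed little between the genotypes, and its 2 sodium-activated relatives had ratios of opposite sign. Kcnma1, which encodes the BK pore, stood at 13.51, 13.54, 13.58 and 13.53. Its mean log2 ratio was -0.01 ± 0.05 (SD, n = 2; limma adjusted p = 0.977), the genotypes overlapped, and the sign of this value turned under other settings. All 4 Kcnma1 probes were kept, with mean ratios between -0.06 and 0.04. Kcnmb1, the BK beta subunit of smooth muscle, stood at 11.79, 11.70, 11.97 and 11.75, lower in the mutant on both arrays by little (mean -0.15 ± 0.09, limma adjusted p = 0.486). Kcnt1, a sodium-activated pore subunit known from neurons, read 7.77, 7.17, 7.79 and 7.39. Both mutant RNAs lay below both controls, and the mean was -0.50 ± 0.14, or 1.42-fold lower (limma adjusted p = 0.176). Its paralog Kcnt2 read 9.51, 9.92, 9.65 and 9.79, with a mean of 0.27 ± 0.19, higher in the mutant on both arrays. Kcnn4, the intermediate-conductance channel of epithelia, blood cells and proliferating cells, read 11.16, 10.71, 11.46 and 11.14 and had a mean of -0.38 ± 0.09 (limma adjusted p = 0.208). Beside it, erythroid markers were lower on both arrays for 5 of 5 genes (medians of -0.28 and -0.23) and endothelium markers for 5 of 7 (medians of -0.25 and -0.11). Urothelium markers were lower on both for 0 of 8 genes (medians of 0.45 and 0.08) and leukocyte markers for 0 of 6 (medians of -0.14 and 0.06). The part of these lists in the value of Kcnn4 was not tested. The small-conductance channels Kcnn2 and Kcnn3 had mean log2 ratios of -0.10 and 0.10. Kcnmb4, a BK beta subunit of nerve, had 0.10 and Kcnu1, a channel of sperm, 0.18. The smooth muscle markers measured in the same RNAs were lower on both arrays for 6 of 8 genes (medians of -0.17 and -0.38), with a mean level of 16.25 and 16.42 in the controls and 16.07 and 16.004 in the mutants, and their part in these values was not tested.

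The voltage-gated subunits held both the second lowest and the highest mean of the family. Kcna5, a delayed rectifier of vascular smooth muscle and heart, read 9.40, 8.66, 9.12 and 8.80. The genotypes did not overlap, the ratio was lower on array 1 (-0.75) than on array 2 (-0.32), and the mean was -0.53 ± 0.31, or 1.45-fold lower (limma adjusted p = 0.241). Its second probe gave a mean of -0.31. Kcna1, an axonal channel, had log2 ratios of -0.30 and -0.37. Kcnq5, an M-type channel of neurons and smooth muscle, read 11.01, 10.72, 10.98 and 10.77, and its mean was -0.26 ± 0.06 (limma adjusted p = 0.293). Each mutant RNA lay below each control RNA. Kcnq1, a channel of heart and epithelia, read 9.20, 8.50, 8.88 and 8.77, so that its mean of -0.41 ± 0.41 came mostly from array 1. Kcnc2, a fast-opening neuronal channel, read 8.67, 7.83, 8.06 and 8.11. Its ratios were -0.83 and 0.05, the control RNA of array 1 was high, and the genotypes overlapped. Kcnh2, the ERG channel, read 9.39, 9.18, 9.34 and 9.47 and went opposite ways on the 2 arrays. Kcnh5, an ether-a-go-go channel known from brain, read 7.33, 7.99, 7.23 and 7.77. Both mutant RNAs lay above both controls, with a mean of 0.60 ± 0.09, or 1.51-fold higher (limma adjusted p = 0.133). Its ratios were 0.66 and 0.54, the latter just under the 1.5-fold mark of 0.58. Kcnd3, a subunit of the transient outward current, had a mean of -0.19, and 14 further measured voltage-gated members had means between -0.15 and 0.14. Kcnh8 is among these, and its probe maps to the strand opposite to the one RefSeq gives for the gene. Its values may thus not be those of the Kcnh8 messenger. Strands were compared for 44 of the 64 measured members, and the others, among them Kcnt1, Kcnk3 and Kcnq1, were not checked. Pericyte markers, another muscle-like population of the vessel wall, were lower on both arrays for 4 of 5 genes (medians of -0.43 and -0.39), and nerve markers had 3 of 9 lower and 4 higher (medians of 0.01 and 0.01). The part of either cell type in the voltage-gated values was not tested.

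**Figure D3:**
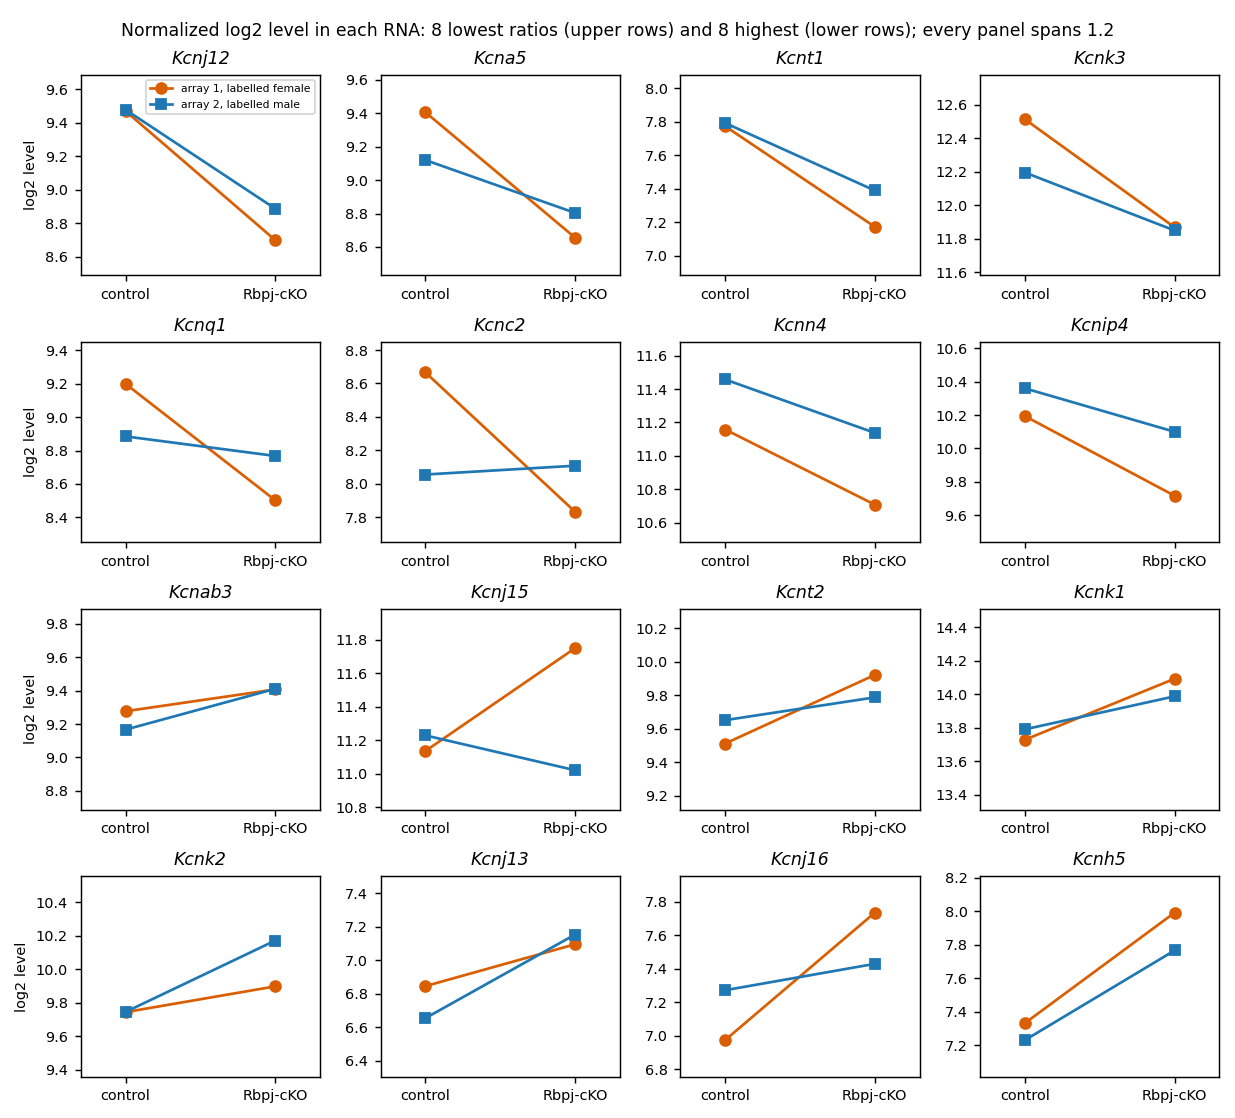
Normalised log2 level in control and Rbpj-cKO RNA for the 8 genes with the lowest mean ratio (upper rows) and the 8 with the highest (lower rows); each line is 1 array and every panel spans the same height. Both lines slope down for Kcnj12, Kcna5, Kcnt1, Kcnk3, Kcnq1, Kcnn4 and Kcnip4, that of array 1 alone for Kcnc2, and for Kcnj15 the line of array 1 slopes up and that of array 2 down.

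Among the silent modifiers, which open no pore alone and join other voltage-gated subunits, differences were small. Kcns3 had log2 ratios of -0.52 and 0.01, and the means of the other 5 measured genes ran from -0.14 (Kcns1) to 0.17 (Kcnv2). Of the auxiliary subunits, Kcnip4, a calcium-binding partner of the Kcnd channels, read 10.19, 9.72, 10.36 and 10.10, lower in each mutant RNA than in each control, with a mean of -0.37 ± 0.15 (limma adjusted p = 0.247). Its relative Kcnip1 had 0.17 and Kcnip3 0.01. Kcnab3, a cytosolic beta subunit of the Kcna channels, read 9.28, 9.41, 9.17 and 9.41, with a mean of 0.19 ± 0.08. Kcne3 had log2 ratios of -0.31 and 0.02. Kcne4, a small membrane subunit that damps Kcna and Kcnq currents, read 11.35, 11.35, 11.43 and 11.32 with a mean of -0.05 ± 0.09, and the genotypes overlapped. Kcnab1 could be read on array 1 alone (-0.26), since all 4 of its spots on array 2 carried a spot-quality flag.

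The inward rectifiers held the lowest mean of the family, and 5 of 9 differed in sign between the arrays. Kcnj12, a strong inward rectifier of skeletal muscle and heart, read 9.47, 8.70, 9.48 and 8.89. The controls were nearly equal and both mutants lay below them, with ratios of -0.77 and -0.59 and a mean of -0.68 ± 0.13, or 1.60-fold lower (limma adjusted p = 0.132). With median centring in place of loess it was no longer 1.5-fold lower on both arrays. Of 6 measured skeletal muscle markers, 4 were lower on both arrays and 2 higher (medians of -0.23 and -0.24), with Ckm at -0.82 and -0.79 and Myh8 at -1.51 and -1.24. Acta1 had -0.24 and -0.07, Tnnt3 -0.23 and -0.40, Actn3 0.28 and 0.20, and Myog 0.14 and 0.02. The mean level of that list was 11.18 and 11.21 in the controls and 10.78 and 10.83 in the mutants, its seventh marker Myh3 was not measured, and its part in the value of Kcnj12 was not tested. Kcnj2, a further strong inward rectifier of muscle, read 7.26, 7.34, 7.28 and 7.05 and had a mean of -0.07 ± 0.22 with opposite signs on the arrays. Kcnj10, Kcnj15 and Kcnj16 serve kidney tubules and glia. Kcnj16 read 6.97, 7.74, 7.27 and 7.43, with ratios of 0.76 and 0.16 and a mean of 0.46 ± 0.43 (limma adjusted p = 0.342). Kcnj15 read 11.14, 11.75, 11.23 and 11.02, with ratios of 0.61 and -0.21, so that 1 mutant RNA stood above all others. Kcnj10 read 9.48, 9.55, 9.63 and 9.31, with ratios of 0.07 and -0.32. Kcnj1, the potassium secretion channel of the kidney, was well above background in 1 of 4 RNAs, the mutant RNA of array 1, where its ratio was 0.79 over a control that was not well above background and so gives only a bound; on array 2, where it was not well above background, the ratio was -0.01. The kidney epithelium markers differed in the same RNAs: their mean level was 7.77 and 7.61 in the controls, 8.62 in the mutant of array 1 and 8.11 in the mutant of array 2, with Umod at 1.48 and 0.26 and Lrp2 at 1.03 and 0.96. Aqp2 was at -0.02 and 0.02, Slc12a1 and Nphs1 were not measured, and the part of kidney RNA in the values of Kcnj1, Kcnj15 and Kcnj16 was not tested. The urothelium list had medians of 0.45 and 0.08, with 4 of 8 genes higher on both arrays. Its part in the value of Kcnj15 was not tested either. Kcnj13, a weak rectifier of transporting epithelia, read 6.85, 7.10, 6.65 and 7.15, a mean of 0.37 ± 0.18 (limma adjusted p = 0.253), but its control RNA on array 2 was not well above background, which makes the ratio of 0.50 there uncertain. Kcnj4, Kcnj6 and Kcnj14 had means of -0.14, -0.13 and -0.16. On arrays 1 and 2 in turn, Kcnj4 had 0.03 and -0.30, Kcnj6 -0.15 and -0.12, and Kcnj14 -0.37 and 0.05.

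Of the two-pore domain channels, Kcnk3 was the lowest. It encodes an acid-sensitive background channel of vascular smooth muscle, neurons and brown fat and read 12.51, 11.87, 12.20 and 11.85. Both mutant RNAs lay below both controls, with ratios of -0.64 and -0.35 and a mean of -0.50 ± 0.21, or 1.41-fold lower (limma adjusted p = 0.208). The adipocyte list had a mean level of 15.35 in the control and 12.11 in the mutant of array 1, and of 13.41 and 11.74 on array 2. Of its 10 genes 1 passed the limma test, and its part in the value of Kcnk3 was not tested. Kcnk2, a stretch-sensitive channel of smooth muscle and neurons, read 9.74, 9.90, 9.74 and 10.17 and was higher in the mutant on both arrays, with a mean of 0.29 ± 0.19 (limma adjusted p = 0.328). Kcnk1, a background channel of epithelia and kidney, read 13.73, 14.09, 13.79 and 13.99, with a mean of 0.28 ± 0.12 (limma adjusted p = 0.294). The urothelium markers were higher on both arrays for 4 of 8 genes (medians of 0.45 and 0.08), and the part of urothelium or kidney RNA in the value of Kcnk1 was not tested. Kcnk5, a tubular background channel, read 8.30, 8.35, 8.32 and 8.36 with a mean of 0.04 ± 0.00. The other 6 measured members had means between -0.08 (Kcnk9) and 0.02 (Kcnk7); the mutant RNA of array 1 was not well above background for Kcnk7.

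The other 27 genes were left out of the comparison. In 23 of them no probe was well above background in any of the 4 RNAs. They include Kcnj11, the pore of the ATP-sensitive channel of muscle and pancreas, Kcne1, the partner of Kcnq1 in heart, Kcnq3, a neuronal M-channel gene, and the G-protein-gated rectifiers Kcnj3, Kcnj5 and Kcnj9. Kcnf1, Kcnh1 and Kcnj1 had 1 channel above background, and Kcnab1 was the gene lost to quality flags. At the level of probes, 91 of 139 were kept, 88 of these well above background in all 4 channels, while 44 were above in 0 channels. A signal not well above background is a bound and does not show that a gene is silent.

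Mean ratios were also compared between probes of the same gene. Of the 23 measured genes with more than 1 probe kept, the probes' means lay within 0.20 of each other for 22. The median range was 0.08 and the largest 0.22, for Kcna5. Many of these means themselves lay near 0, so a range of this size does not by itself show agreement between probes. In 7 genes the probes differed in sign, with means between -0.15 and 0.10. Between the 4 spots of a probe the log2 ratio had a median SD of 0.05 and 0.06 for the 2 arrays. Between the arrays, which also differ in labelled sex and dye, the probe means had a median SD of 0.09. Single spots and probe means are unlike measures, so these values do not part technical from biological spread.

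**Figure D4:**
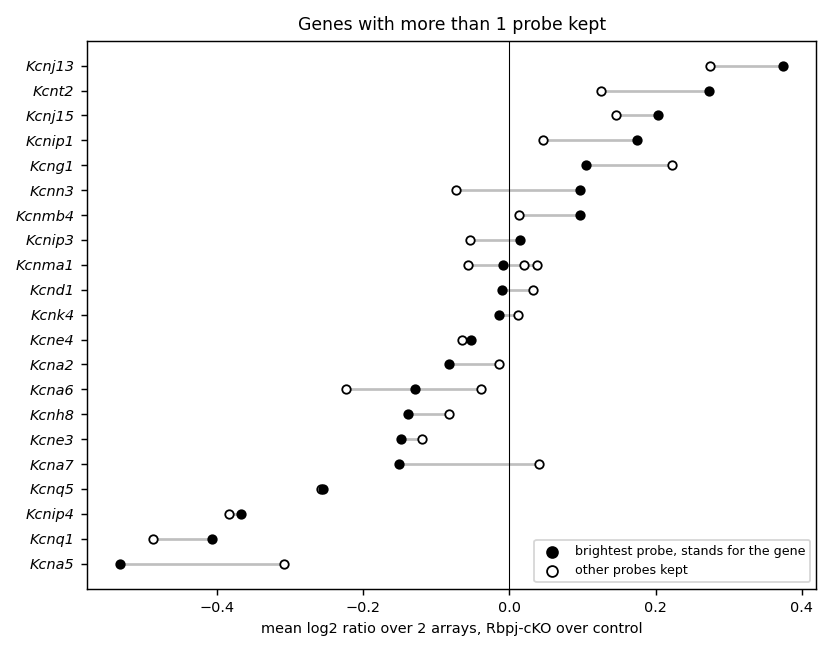
Mean log2 ratio over the 2 arrays for every probe kept of 21 genes with more than 1, the filled circle being the brightest probe, which stands for the gene. Kcnq1, Kcnq5, Kcnip4 and Kcna5 lie below 0 on every probe, and Kcnj13, Kcnj15 and Kcnt2 above. Some genes not named here also have every probe on the same side. Both Kcnj15 probes were above 0 on array 1 and below it on array 2. Both Kcnj13 probes were kept through the mutant RNAs alone, which favours ratios above 0, so their agreement is no separate support.

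Genes that work with the channels but fall outside the naming pattern also differed both ways. Of 14 listed partner subunits, 11 were measured, 3 were lower on both arrays and 4 higher, and 0 passed the limma test. Dpp10, a partner of the Kcnd channels, had 0.54 and 0.69, and Abcc8, a sulfonylurea receptor that joins Kcnj11, had -0.41 and -0.70. Of 16 listed pumps and cotransporters of potassium, 12 were measured, 4 were lower and 3 higher, and 0 passed. Fxyd2, a pump regulator of kidney tubules, had 0.83 and -0.11.

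**Figure D5:**
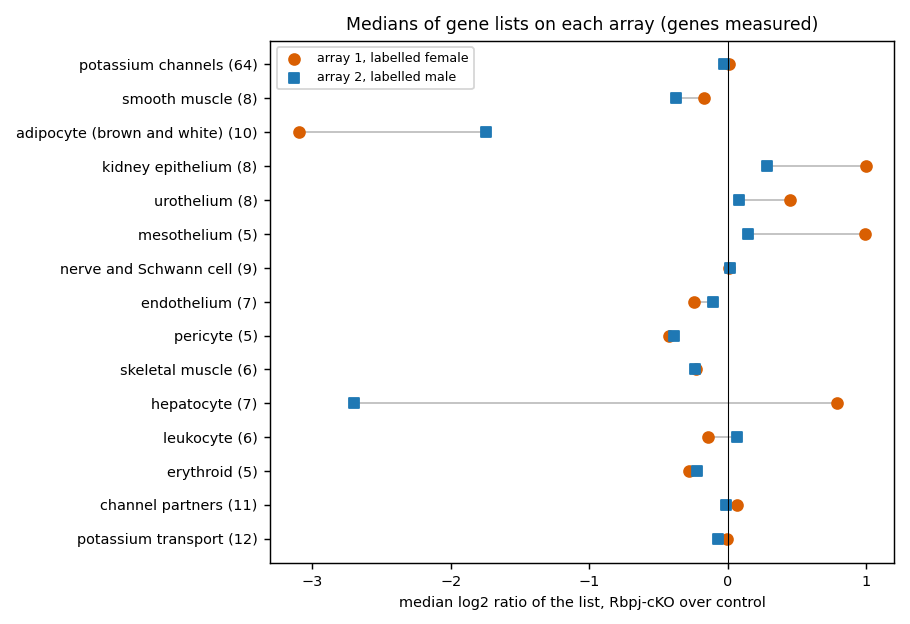
Median log2 ratio of Rbpj-cKO over control for the potassium channel genes and for fixed marker and partner lists, circles for array 1 and squares for array 2, with the number of genes measured in brackets. The potassium channel median sits near 0 on both arrays, whereas the adipocyte list lies below -1.7 and the hepatocyte list changes sign.

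The stretch upstream of each gene's start was searched for the letters that RBPJ binds, since Rbpj was the gene targeted. RefSeq held a promoter on GRCm38.p6 for 66 of the 91 members, and the 250 bases before the start were read on both strands. The core TGGGAA occurred in 15 of 66 members (22.7%), beside 21.5% of 27025 promoters, and in 4 of 14 members lower on both arrays and 4 of 14 higher on both (28.6% each). The longer form GTGGGAA, which contains the core, occurred in 3 of 66 members (4.55%) beside 5.41% of all promoters, and the CArG box, the letters that serum response factor binds in smooth muscle genes, in 0 of 66 beside 1.4%. Members thus held these letters about as often as other promoters did. Of the 8 members with the lowest mean, 5 had a promoter and Kcna5 was the 1 with a match; of the 8 with the highest, 7 had one and Kcnt2 was the 1 with a match. Both windows are printed because they carry those matches, each in the gene's own direction with the core or its reverse complement in capitals; a match is a description of the letters alone.
Kcna5 (chr6:126535556-126535805, - strand): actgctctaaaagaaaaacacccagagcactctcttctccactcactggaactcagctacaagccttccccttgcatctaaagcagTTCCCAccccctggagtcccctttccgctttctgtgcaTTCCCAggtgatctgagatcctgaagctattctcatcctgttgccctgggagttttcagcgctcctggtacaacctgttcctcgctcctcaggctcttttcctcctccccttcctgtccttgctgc
Kcnt2 (chr1:140245468-140245717, + strand): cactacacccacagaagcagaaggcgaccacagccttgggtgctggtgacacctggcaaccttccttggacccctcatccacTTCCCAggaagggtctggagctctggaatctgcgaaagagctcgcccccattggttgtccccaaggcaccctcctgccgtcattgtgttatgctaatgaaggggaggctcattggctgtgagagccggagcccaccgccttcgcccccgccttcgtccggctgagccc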

How the data were processed

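Total RNA was amplified, labelled with Alexa dyes and hybridised to a custom 2-colour Agilent array with probe coordinates on mm9. Spot intensity was extracted with Agilent Feature Extraction 10.7.3.1, per the submitters' processing notes, and the scanner files hold the intensity of both channels and their local background as deposited. The deposited scanner files also give a log10 ratio of red over green, which lay within 0.02 of the quotient of the processed signals at 93.5% of gene spots. The deposited series table holds a score that looks like a signed fold change, with no value between -1 and 1; how the authors centred it is unknown, its column medians are 1 and 1, and its correlation with the scanner ratio was 0.777 and 0.686 across probes.

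In R 4.3.3 with limma 3.58.1, background was corrected with normexp (offset 50), loess normalised the ratios inside every array (weight 0 for control spots), levels were scaled between arrays with Aquantile, and flagged spots (3.34% and 3.12%) were left out. No spot was saturated. Replicate spots were averaged. A probe stayed in when, in at least 1 genotype, over 50% of its spots cleared the scanner's background test on array 1 and on array 2, and the brightest probe stood for its gene. Gene names came from the files, updated through RefSeq accessions (GRCm38.p6), which matched 127 of the 139 member probes. The dye labels set the direction, mutant over control, and each ratio was tested against 0 with lmFit and eBayes, two-sided, adjusted over all 21143 genes with Benjamini-Hochberg at 0.05; the script was tested on simulated data. The 2 arrays measure the spread between these samples, which may be technical, and their number limits the precision.

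Values in every RNA are given for members past the threshold, members at least 1.5-fold changed on both arrays in the same or in opposite directions, the 8 highest and 8 lowest means, and a fixed list of members known from muscle, kidney, nerve or fat. The members, this list, the marker lists and the motifs were chosen with earlier results of these data known. Some genes counted here are not reported by name.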

Additional observations from a re-analysis of the deposited data

Results flagged for a closer look

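Kcnc2 and Kcnj15 went opposite ways in the pairs labelled female and male. The log2 ratio on array 1 minus that on array 2 was -0.88 for Kcnc2 and 0.82 for Kcnj15; with 1 pair per labelled sex and the dyes exchanged between the pairs, the difference was not tested, and labelled sex, dye and array cannot be told apart. On array 1 the Y-linked genes also differed between the mutant and the control RNA, so sex and genotype cannot be told apart there.

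Other signals lie outside the comparisons. Kcnab1 had a log2 ratio of -0.96 on array 2 when its flagged spots were kept, beside -0.26 on array 1. Kcnj1, left out because it was above background in a single RNA, had a measured log2 ratio of 0.79 in the pair labelled female; its control there was not well above background, so this is no exact ratio.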

How the results depend on the processing

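No potassium channel gene passed the limma test under any setting that gave a test, and 10 to 19 members had an unadjusted p under 0.05 (15.62% to 29.69% of members, beside 8.32% to 14.28% of all genes). The count of members at least 1.5-fold higher on both arrays was 0, but 1 (Kcnh5) with a normexp offset of 16, 1 (Kcnh5) without background subtraction, 2 (Kcnh5 and Kcnj13) with the scanner's log ratio and 1 (Kcnh5) with the series table; Kcnj13 was kept through the mutant RNAs alone and its control on array 2 was not well above background. Over all genes the count was 85, and 120, 112, 243 and 154 under these settings. The count at least 1.5-fold lower was 1, but 2 (Kcnj12 and Kcnt1) with the scanner's log ratio and with the series table. It was 0 with median centring. Over all genes it was 168, and 264, 209 and 178 under these settings. In the order main, offset 16 and scanner's log ratio, Kcnh5 had 0.60, 0.73 and 1.03 and Kcnt1 -0.50, -0.62 and -0.86. Kcnj13 had 0.37, 0.53 and 1.04 and Kcnj16 0.46, 0.58 and 0.87. Kcnk3 had -0.50, -0.50 and -0.47 and Kcnn4 -0.38, -0.39 and -0.38. Lowering the offset alone thus enlarged some ratios and left others nearly unchanged, and the cause of the other shifts was not tested. The median log2 ratio of the members was -0.0069 with the series table.

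Among single genes Kcnma1 turned to 0.013 with the scanner's log ratio and 0.040 with the series table. Leaving out either array, the count at least 1.5-fold lower ranged from 1 to 6 and that at least 1.5-fold higher from 0 to 3. Those lower and those higher ranged from 30 to 34 each, and the median from -0.026 to 0.011. The counts on a single array were not made over all genes, so whether members differ there from other genes cannot be told. Without array 1 or array 2 in turn, the ratio ranged from -0.83 to 0.053 for Kcnc2, from -0.21 to 0.13 for Kcnh2, from -0.21 to 0.61 for Kcnj15, from -0.32 to 0.071 for Kcnj10, from -0.23 to 0.081 for Kcnj2, from -0.11 to 0.0084 for Kcne4 and from -0.043 to 0.026 for Kcnma1. Each array pairs its 2 RNAs, so the fit of ratios is blocked by replicate; the 4 channels without the replicate block gave 0 calls and 14 members with an unadjusted p under 0.05 (21.88%, beside 11.55% of all genes), against 15 with it. Of the 24 members described in every RNA, 17 kept their sign in all settings. Keeping flagged spots, an alternative chosen after seeing the data, added Kcnab1 to the members tested.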
